A study of Mus musculus with 13 samples.

Results

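MicroRNA gene rows of at least 1 FPKM were followed in C2C12 myoblasts, a mouse muscle precursor line, between an RNA-seq library labelled siLinc-Yy1 and an RNA-seq library labelled siNC. Of 614 rows named for a microRNA in the gene-level table, 80 reached a mean of 1 FPKM over these libraries and form the set described here. Rows of host transcripts, whose names end in hg, were left out. The rows were chosen by their mean FPKM in these same libraries, so their levels are a description. FPKM is the number of fragments scaled by a length for the transcript and by the mapped fragments of the library. For rows this short the value of 1 fragment fell more steeply than row length rose, as described below. Another 483 microRNA rows were listed at 0 in both libraries, and 51 lay above 0 in at least 1 library but under the limit.

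By their names, siLinc-Yy1 cells received an siRNA to the long noncoding RNA Linc-Yy1, and siNC cells a negative control siRNA. Both libraries are poly(A)-selected RNA of C2C12 cells at the myoblast stage, per the labels, with 1 library per condition. No difference below has a replicate check, no p-value is given, and every value describes this pair of libraries. The study has 13 samples, of which the other 11 were not analysed here. The 5 myoblast markers lay between 21.9 and 487 FPKM in siLinc-Yy1 and between 18.8 and 322 FPKM in siNC, while 3 endothelial markers reached at most 0.169 FPKM in siLinc-Yy1 and 0.136 FPKM in siNC. Of 3 leukocyte markers the highest was Cd68, at 4.43 FPKM in siLinc-Yy1 and 4.48 FPKM in siNC, and of 3 adipocyte markers Fabp4, at 1.63 FPKM in siLinc-Yy1 and 1.71 FPKM in siNC. The targeted RNA, lincYy1, was scarce, at 0.227 FPKM in siLinc-Yy1 and 0.360 FPKM in siNC.

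A microRNA gene is transcribed as a long primary RNA, on its own or inside the intron or exon of a host gene. The nuclear enzyme Drosha with its partner Dgcr8 cuts out a hairpin, Dicer1 trims the hairpin to a short duplex, and an Argonaute protein carries the chosen strand. The seed, bases 2 to 8 of the mature strand, pairs with target mRNAs. Mature microRNAs carry no poly(A) tail and are shorter than the fragments of such a library. The rows therefore count fragments of longer RNAs placed on the hairpin interval, and they are no measure of mature microRNA.

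Of the 80 rows, 59 were found by symbol in RefSeq (GRCm38.p6), and 57 of them had mature sequences, 88 in all. The sequences below belong to those rows on which the results turn that had a mature sequence. They are written 5′ to 3′ with the seed in capitals. Only 5 of 81 distinct seeds were shared between rows of the set, by 10 rows. The first group shares seeds within the set.
let-7b-5p: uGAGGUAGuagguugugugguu
let-7c-5p: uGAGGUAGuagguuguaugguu
let-7d-5p: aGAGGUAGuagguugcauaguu
miR-27a-3p: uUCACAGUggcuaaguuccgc
miR-27b-3p: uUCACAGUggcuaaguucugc
miR-214-3p: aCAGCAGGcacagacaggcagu
miR-761: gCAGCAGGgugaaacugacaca
miR-680: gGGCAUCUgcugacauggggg
The let-7 family, which times development and holds back growth genes, had 3 rows in the set (Mirlet7b, Mirlet7c-2, Mirlet7d), which share the seed of the 5p strand. Mirlet7b and Mirlet7c-2 also share that of their 3p strands. Mir27a and Mir27b share a seed, and the mature sequence of miR-680 is given in RefSeq for Mir680-1, Mir680-2 and Mir680-3 alike.

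The second group holds rows that were abundant or at least 2-fold apart between the libraries and whose seed no other row of the set shares.
miR-690: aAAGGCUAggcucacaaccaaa
miR-682: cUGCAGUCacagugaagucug
miR-719: aUCUCGGCuacagaaaaauguu
miR-703: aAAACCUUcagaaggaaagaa
miR-692: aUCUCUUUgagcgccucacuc
miR-1982-5p: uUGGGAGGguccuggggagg
miR-3064-5p: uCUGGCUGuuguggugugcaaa
miR-3064-3p: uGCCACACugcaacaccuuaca
miR-1983: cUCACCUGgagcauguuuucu
miR-707: cAGUCAUGccgcuugccuacg
miR-2137: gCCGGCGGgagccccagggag

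The set was low and uneven. The median row had a mean of 3.33 FPKM, against 13.6 FPKM over all 11792 rows of the table that passed the same limit. Of the 80 rows, 11 had a mean of 20 FPKM or more, 19 lay between 5 and 20 FPKM and 50 below 5 FPKM. A single row, Mir5109, held 58.6% of the FPKM summed over the set in siLinc-Yy1 and 29.3% in siNC. The summed FPKM of all 80 rows was 2552 in siLinc-Yy1 and 1186 in siNC. Without Mir5109 it was 1056 in siLinc-Yy1 and 839 in siNC.

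By place, 28 rows had a locus that the table gives to no other row, and 52 shared their locus with a gene. Exact zeros, which can be failed estimates, were treated as unresolved. They occurred in 1 library for 15 of the 80 rows (7 at 0 in siLinc-Yy1 and 8 at 0 in siNC), against 0.237% of all rows past the limit. Of the 65 rows above 0 in both libraries, 44 were higher and 21 lower in siLinc-Yy1. Their median log2 fold change, with 1 FPKM added to each value, was 0.36, and it was -0.021 over all rows above 0 in both. It was 0.36 both for the 24 rows alone at their locus and for the 41 that share it with a gene. The row at the median of the 65, Mir3060, had 1 fragment in each library, a case described below.

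The FPKM of these rows moved in steps, and the steps give the number of fragments behind a value. At one row length the low values were multiples of a common unit, which shrank as rows grew longer. In siLinc-Yy1 the fitted unit was 4.73 FPKM at 64 nt and 0.519 FPKM at 128 nt, a steeper fall than by length alone. At a row length of 76 nt, 1 fragment was worth 2.48 FPKM in siLinc-Yy1 and 1.63 FPKM in siNC. At 87 nt it was worth 1.57 FPKM in siLinc-Yy1 and 1.03 FPKM in siNC. Of 123 values up to 10 fragments, 94 (76.4%) were whole multiples within 0.03 fragments. A further 11 lay that close to a simple fraction such as 0.5.

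**Figure D1:**
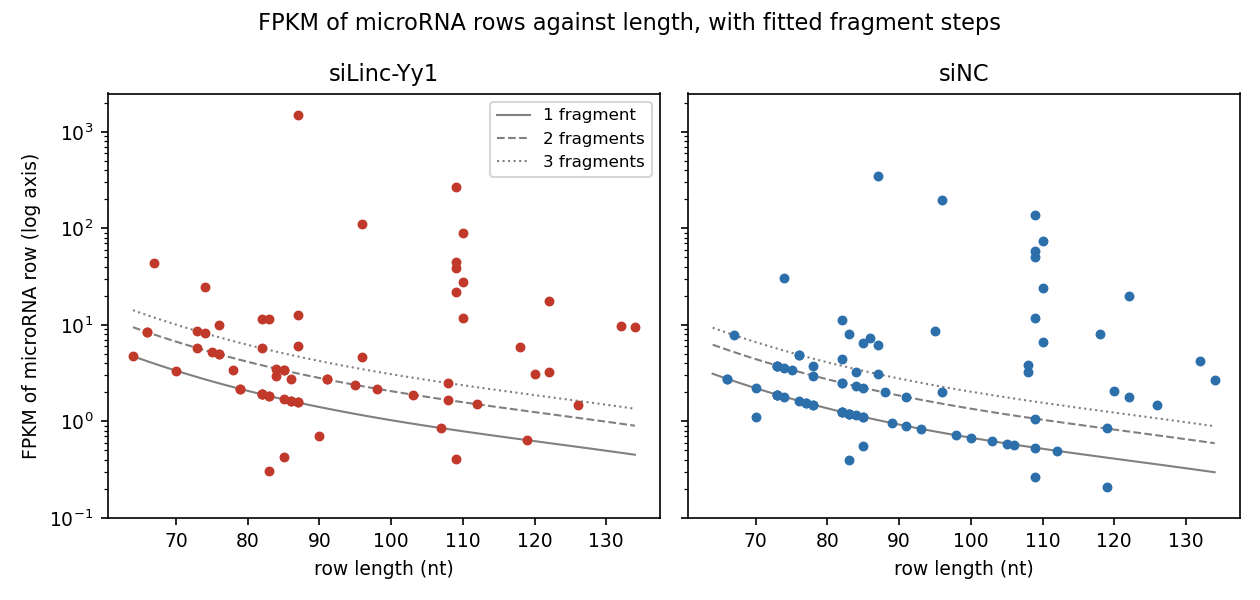
FPKM of microRNA rows (log axis) against row length in nucleotides, in siLinc-Yy1 (left) and siNC (right), with each point 1 row above 0 and lines for the fitted value of 1, 2 and 3 fragments. Many low rows sit on the lines, and 1 fragment at 76 nt stands at 2.48 FPKM in siLinc-Yy1 and 1.63 FPKM in siNC.

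In the fit over all lengths, 1 fragment was worth 1.52 times as much FPKM in siLinc-Yy1 as in siNC. Equal fragments therefore gave a higher FPKM in siLinc-Yy1. In 9 rows the fragments differed by at most 0.1 between the libraries, from 1 to 5 in each, and their FPKM ratios ran from 1.51 to 1.52. Fragments were computed with the fitted ratio, so equal fragments give about this ratio by construction. Mir140, in the ubiquitin ligase gene Wwp2, had 1 fragment in each library, which reads as 3.35 FPKM in siLinc-Yy1 and 2.21 FPKM in siNC. Mir25, in the replication gene Mcm7, had 2 in each, at 3.52 FPKM in siLinc-Yy1 and 2.32 FPKM in siNC. Mir763, in the chromatin protein gene Hmga2, had 5 in each. Mir3060, with 1 in each, had the median log2 fold change of the set, 0.36. Of 47 rows of known length above 0 in both libraries, 16 had more rounded fragments in siLinc-Yy1 and 21 had fewer. Among those 21, 6 still had a log2 fold change above 0. Mir1187, at 5.48 fragments in siLinc-Yy1 and 4.50 in siNC, rounds to 5 in each and is in none of these groups. Fragments are not scaled between the libraries.

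Most rows rested on few fragments. A row length was known for 61 of the 80. Of these, 21 had at most 3 fragments over both libraries together, another 21 had 4 to 10, 11 had 11 to 50, and 8 had more than 50. A row of up to 80 nt passed the limit of 1 FPKM on 1 fragment in siLinc-Yy1 alone, and one of up to 71 nt on 1 fragment in siNC alone. Among the 47 rows of known length above 0 in both libraries, the counting interval (95%, exact binomial) of the FPKM ratio lay above 1 for 6 and below 1 for 2. Such intervals cover counting error only.

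Of the 65 rows, 12 were higher in siLinc-Yy1 by 2-fold or more after 1 FPKM was added to each value, beside 1.29% of all rows above 0 in both, and 2 were lower by as much, beside 0.0425%. The limit that chose the rows uses the same FPKM values, so these shares are given side by side only. The authors' deposited table called 2 of the 80 rows higher, Mir5109 and Mir690, and none lower. By the same calls, over all rows past the limit, 1.22% were higher and 0.229% lower. Its q-value for Mir690 was 0.0070, and that for Mir5109 is listed as 0. It flags 5 of the 80 rows as LOWDATA in place of OK: Mir719, Mir214, Mir297c, Mir5113 and Mir669m-1.

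**Figure D2:**
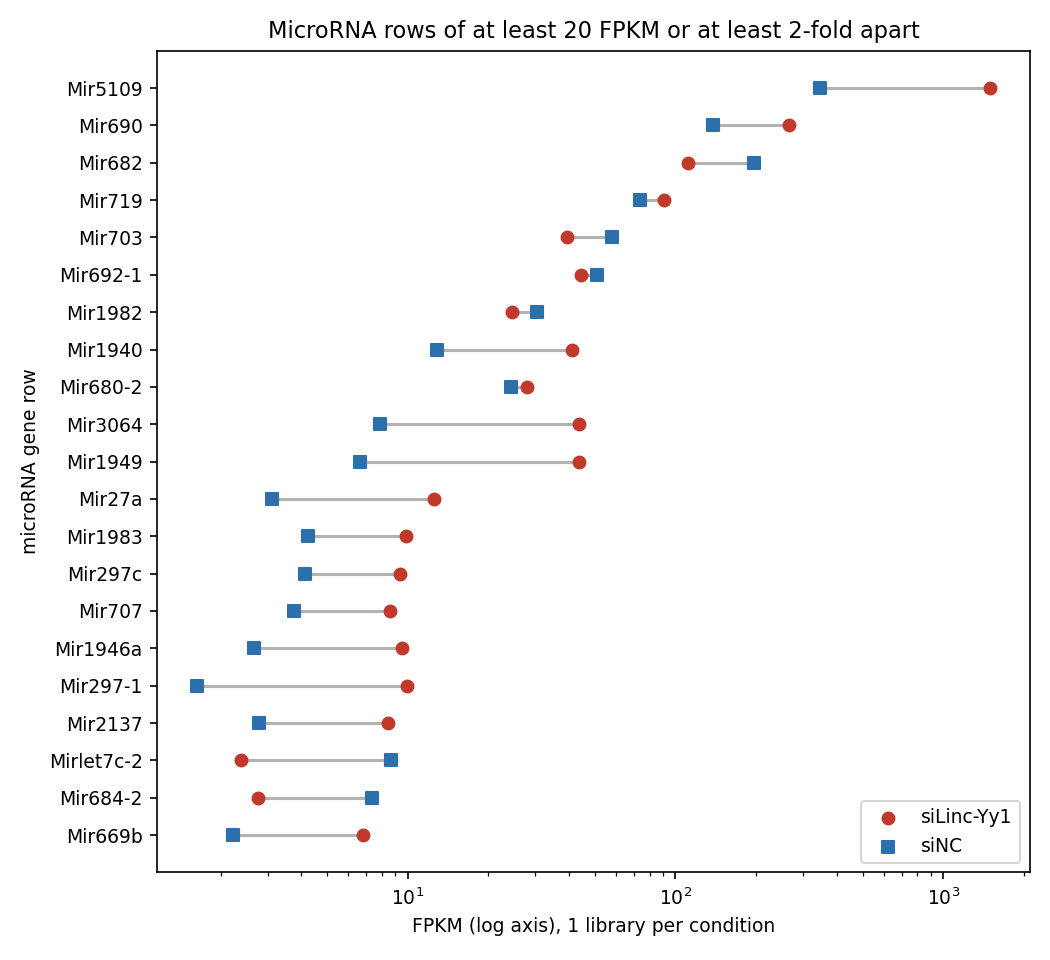
FPKM (log axis) of the 21 rows of at least 20 FPKM or at least 2-fold apart, with 1 point per library (siLinc-Yy1 circles, siNC squares) and rows ordered by mean. Mir5109 is the highest, at 1496 FPKM in siLinc-Yy1 and 347 FPKM in siNC, while Mir682, Mir703 and Mir692-1, also near the top, are lower in siLinc-Yy1.

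Mir5109 was the most abundant row. It lies alone at chr5:17282567-17282653 (mm9) and measured 1496 FPKM in siLinc-Yy1 and 347 FPKM in siNC. These values correspond to 955 fragments in siLinc-Yy1 and 337 in siNC. The ratio was 4.31, with a counting interval of 3.80 to 4.89. Its log2 fold change was 1.78 after scaling to equal summed FPKM and 1.37 less the running median of rows of like level, a shift that the counting interval does not cover.

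Mir690, next in level, shares its locus with Fgf12, a fibroblast growth factor gene on the same strand. It measured 266 FPKM in siLinc-Yy1 and 138 FPKM in siNC (329 and 259 fragments), a ratio of 1.93 with an interval of 1.63 to 2.28. The Fgf12 row stood at 0.024 FPKM in siLinc-Yy1 and 0.032 FPKM in siNC. Almost nothing was thus placed on the host around an abundant microRNA interval. The hairpin shares a run of 20 bases with that of Mir3473a, whose row is no member of the set.

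Mir682, alone at chr13:75782494-75782589, measured 111 FPKM in siLinc-Yy1 and 196 FPKM in siNC. Alone means that no other row has the same locus. Whether fragments of RNAs from elsewhere in the genome were placed on the interval was not tested, here or for other rows. With 96 fragments in siLinc-Yy1 and 257 in siNC, its ratio of 0.568 had an interval of 0.444 to 0.720. Mir703 was also lower in siLinc-Yy1, at 39.2 FPKM, against 57.9 FPKM in siNC, with a ratio of 0.677 and an interval of 0.466 to 0.948. Both counting intervals lie below 1, and neither row reached 2-fold as deposited. Mir682 passed 2-fold under other scalings, with a log2 fold change of -1.13 both at equal summed FPKM and less the running median, against -0.81 as deposited.

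Mir719, in the nucleoporin gene Nupl1, measured 90.4 FPKM in siLinc-Yy1 and 73.7 FPKM in siNC. Mir692-1 measured 44.3 FPKM in siLinc-Yy1 and 50.7 FPKM in siNC, and shares a run of 51 bases with Mir692-2. Mir1982, in Oaz1 (ornithine decarboxylase antizyme), measured 24.5 FPKM in siLinc-Yy1 and 30.5 FPKM in siNC. The counting intervals of the ratios of Mir719, Mir692-1 and Mir1982 include 1. Mir719 was slightly lower in siLinc-Yy1 at equal summed FPKM (log2 fold change -0.03).

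Mir680 has 3 copies in the set, with the mature sequence shown above. Mir680-1 (chromosome 6) measured 21.9 FPKM in siLinc-Yy1 and 11.8 FPKM in siNC, with a ratio of 1.86 and an interval of 1.02 to 3.43. Mir680-2 (chromosome X) measured 27.9 FPKM in siLinc-Yy1 and 24.2 FPKM in siNC, with a log2 fold change of 0.20 as deposited and -0.11 at equal summed FPKM. Mir680-3 (chromosome 12) measured 6.02 FPKM in siLinc-Yy1 and 6.20 FPKM in siNC. The hairpins of Mir680-1 and Mir680-2 share a run of 39 bases, and Mir680-3 shares 24 with the first and 22 with the second. Summed over the copies, there were 66 fragments in siLinc-Yy1 and 75 in siNC, while the summed FPKM was 55.8 in siLinc-Yy1 and 42.2 in siNC. Fragments are not scaled between the libraries, so no direction of the family is read from their sums.

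Among the 12 rows at least 2-fold higher are Mir3064, Mir1949 and Mir1940, which share their loci with genes. Mir3064 shares its locus with Ddx5, an RNA helicase of the Drosha complex, on the same strand, and measured 43.6 FPKM in siLinc-Yy1 and 7.85 FPKM in siNC. This is 11 fragments in siLinc-Yy1 and 3 in siNC, and the ratio of 5.55 had an interval of 1.47 to 31.1. Ddx5 itself measured 122 FPKM in siLinc-Yy1 and 110 FPKM in siNC. The log2 fold change of the row exceeded that of its host by 2.20.

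Mir1949 shares its locus with Snhg4, a small nucleolar RNA host transcript, and with Snora74a. It measured 43.5 FPKM in siLinc-Yy1 and 6.62 FPKM in siNC. Snora74a, an H/ACA box small nucleolar RNA, measured 49.7 FPKM in siLinc-Yy1 and 12.1 FPKM in siNC. Snhg4 measured 3.03 FPKM in siLinc-Yy1 and 4.24 FPKM in siNC, so the microRNA row and the small nucleolar RNA were higher in siLinc-Yy1 and their host was lower. Mir1940 shares its locus with Zbed3 and Snora47. It measured 41.2 FPKM in siLinc-Yy1 and 12.9 FPKM in siNC, beside Snora47 at 10.6 FPKM in siLinc-Yy1 and 3.55 FPKM in siNC. Zbed3 differed little, at 22.5 FPKM in siLinc-Yy1 and 21.3 FPKM in siNC. How the authors' estimate divided fragments between these overlapping rows is not given in the sources used here.

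Mir27a and Mir27b carry one seed at different places in the genome. miR-27 holds back Pax3, a factor of muscle progenitors, and myostatin, an inhibitor of muscle growth. The hairpins are shown with both mature strands in capitals.
Mir27a: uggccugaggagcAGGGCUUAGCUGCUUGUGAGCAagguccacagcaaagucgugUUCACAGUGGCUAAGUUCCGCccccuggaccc
Mir27b: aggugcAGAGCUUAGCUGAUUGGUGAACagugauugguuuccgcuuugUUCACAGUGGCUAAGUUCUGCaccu
Mir27a, alone at chr8:86732571-86732657, measured 12.6 FPKM in siLinc-Yy1 and 3.10 FPKM in siNC. That is 8 fragments in siLinc-Yy1 and 3 in siNC, and the ratio of 4.05 had an interval of 0.972 to 23.7, which includes 1. Mir27b, at chr13:63402020-63402092, was listed at 0 in siLinc-Yy1 and stood at 3.77 FPKM in siNC, or 2 fragments. Mir24-2, which lies with Mir27a, stood at 0.848 FPKM in siLinc-Yy1 and was listed at 0 in siNC. In the miR-23, miR-27 and miR-24 group, 3 of 6 rows were at 0 in both, beside 483 of all 614 microRNA rows.

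Of the other rows at least 2-fold higher, those alone at their locus included Mir1946a and Mir1983. Mir1946a (chr16:32267536-32267669) measured 9.5 FPKM in siLinc-Yy1 and 2.66 FPKM in siNC. With 21 fragments in siLinc-Yy1 and 9 in siNC its ratio of 3.58 had an interval of 1.56 to 8.79. Mir1983 (chr13:21988787-21988918) measured 9.85 FPKM in siLinc-Yy1 and 4.25 FPKM in siNC, a ratio of 2.32 with an interval of 1.11 to 4.84. Another 3 of known length held under 10 fragments each, and their intervals include 1. They were Mir297-1, placed on chromosome 15 in the table and 7 in RefSeq, so that its length is uncertain (9.90 FPKM in siLinc-Yy1 and 1.63 FPKM in siNC), Mir2137 (8.41 FPKM in siLinc-Yy1 and 2.78 FPKM in siNC) and Mir707 (8.58 FPKM in siLinc-Yy1 and 3.77 FPKM in siNC). Mir707 was 3 fragments in siLinc-Yy1 against 2 in siNC, which shows how small a difference the 2-fold limit can rest on here.

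**Figure D3:**
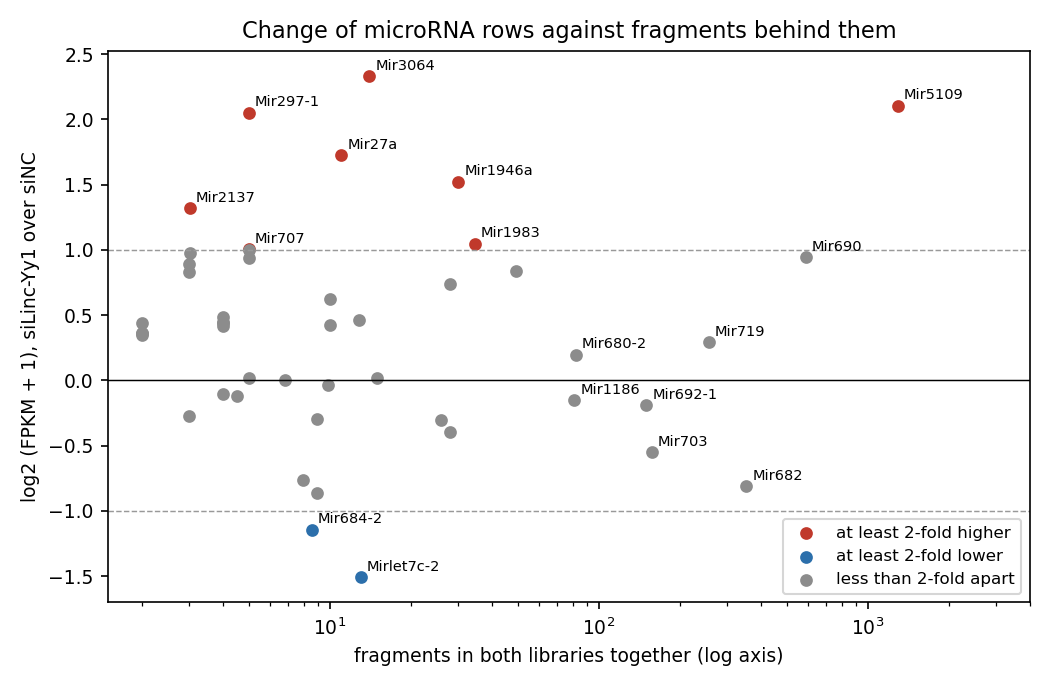
Change on the log2 (FPKM + 1) scale, siLinc-Yy1 over siNC, against the fragments in both libraries together (log axis), for 47 rows of known length above 0 in both. Dashed lines mark 2-fold; of the 8 rows above the upper line 3 held under 10 fragments, and Mir5109 stands apart at the right.

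Of the 3 let-7 rows, 1 was at least 2-fold apart. Mirlet7c-2, at chr15:85537033-85537127, measured 2.39 FPKM in siLinc-Yy1 and 8.66 FPKM in siNC, the lowest log2 fold change of the set (-1.51). With 2 fragments in siLinc-Yy1 and 11 in siNC, its ratio of 0.276 had an interval of 0.0297 to 1.27. Its neighbour Mirlet7b (chr15:85537749-85537833) had 2 fragments in each library, at 3.38 FPKM in siLinc-Yy1 and 2.23 FPKM in siNC. Mirlet7d had 2 fragments in siLinc-Yy1 and 1 in siNC. Of 11 let-7 rows, 6 were listed at 0 in both libraries, beside 483 of all 614 microRNA rows. The hairpin of Mirlet7c-2 shares a run of 26 bases with that of Mirlet7a-1 and of 23 with that of Mirlet7c-1.

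The other row at least 2-fold lower was Mir684-2, at 2.77 FPKM in siLinc-Yy1 and 7.33 FPKM in siNC. Its copy Mir684-1 measured 3.44 FPKM in siLinc-Yy1 and 6.55 FPKM in siNC. Both were lower in siLinc-Yy1, on 6 to 7 fragments in siNC, and both counting intervals include 1.

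The 15 rows listed at 0 in 1 library rested on 1 to 4 fragments in the other, for the 14 of known length. Above 0 in siLinc-Yy1 alone were Mir379 (8.41 FPKM), Mir5106 (5.72 FPKM), Mir761 (4.95 FPKM), Mir3077 (4.76 FPKM), Mir341 (4.63 FPKM), Mir615 (3.95 FPKM), Mir499 (2.16 FPKM) and Mir3068 (2.16 FPKM). Mir379 and Mir341 belong to the imprinted Dlk1-Dio3 region, and Mir615 lies in Hoxc5. Above 0 in siNC alone were Mir762 (4.89 FPKM), Mir5113 (4.42 FPKM), Mir27b and Mir3960 (3.77 FPKM each), Mir677 (2.98 FPKM), Mir302d (2.78 FPKM) and Mir1190 (2.02 FPKM). No fold is given for these rows. The equal values of Mir27b and Mir3960, both 73 nt long, are 2 fragments each, and those of Mir499 and Mir3068, both 79 nt long, are 1 each.

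Few fragments fell on muscle microRNA rows, as on most microRNA rows. Of 7 rows for miR-133, miR-206, miR-208b, miR-486 and miR-499, which are made in muscle and heart, 3 were listed at 0 in both libraries, beside 483 of all 614 microRNA rows. Only Mir499, in the slow myosin gene Myh7b, entered the set, on 1 fragment in siLinc-Yy1. The rows Mir1a-1 and Mir1a-2, found under these names after the list was made, were listed at 0 in both. Mir133b had 1 fragment in siLinc-Yy1 (0.638 FPKM) and 2 in siNC (0.844 FPKM). Mir133a-2 was above 0 in siLinc-Yy1 alone (0.918 FPKM) and Mir486 in siNC alone (0.352 FPKM). All 4 rows of miR-29, a muscle microRNA that Yy1 is known to repress, were listed at 0 in both. So were the rows of miR-34 (3) and of miR-143 and miR-145 (2). Mir29b-2 and Mir29c are flagged LOWDATA, so their zeros are unresolved.

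Mir214 is made with miR-199a from Dnm3os, an RNA inside Dnm3, and in muscle miR-214 holds back Ezh2, the methyltransferase of Polycomb complex PRC2. It measured 11.8 FPKM in siLinc-Yy1 and 6.72 FPKM in siNC, with 15 fragments in siLinc-Yy1 and 13 in siNC. The ratio of 1.76 had an interval of 0.778 to 4.00. Dnm3os measured 1.68 FPKM in siLinc-Yy1 and 2.00 FPKM in siNC. Mir199a-2, flagged LOWDATA, was listed at 0 in both libraries. Ezh2 measured 25.6 FPKM in siLinc-Yy1 and 29.7 FPKM in siNC.

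The miR-17-92 cluster and its paralogues promote proliferation. Of their 15 rows, 12 were listed at 0 in both libraries, a share like that of all microRNA rows (483 of 614). Among these, Mir92-1 is flagged LOWDATA. Mir25 was the only member of the set. Mir93 and Mir106b, which lie with it in Mcm7, were at 0 in both libraries while Mcm7 measured 92.3 FPKM in siLinc-Yy1 and 87.3 FPKM in siNC. The host transcript Mir17hg measured 1.07 FPKM in siLinc-Yy1 and 1.5 FPKM in siNC.

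A host row could be assigned to 51 of the 52 rows that share a locus with a gene, in 43 hosts. RefSeq places 25 of the hairpins on the strand of the host and 3 on the other strand. The strand was not compared for 23. Without strand in the counting, which is not stated, host and microRNA fragments cannot be told apart. For hairpins on the strand of their host, strand would not tell them apart either. Of the 51 rows, 19 had a higher mean FPKM than their host, and in 15 cases the host was below 1 FPKM. Because 1 fragment is worth more FPKM in a shorter row, a higher FPKM than the host need not mean more RNA.

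Rows in abundant hosts mostly held few fragments. Of the rows of known length, 15 lie in hosts of at least 30 FPKM, and 11 of these had at most 5 fragments over both libraries. Mir677 was listed at 0 in siLinc-Yy1 and had 2 fragments in siNC, in Atp5b, an ATP synthase gene of 564 FPKM in siLinc-Yy1 and 381 FPKM in siNC. Mir3091 had 2 fragments in siLinc-Yy1 and 3 in siNC, in the ribosomal protein gene Rps21 (560 FPKM in siLinc-Yy1 and 334 FPKM in siNC). Mir7-1, in the RNA-binding protein gene Hnrnpk, had 3 fragments in siLinc-Yy1 and 6 in siNC.

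The rows and their hosts were set side by side. For the 40 rows with a host and both values above 0, the median log2 fold change of the row less that of the host was 0.33, with 25 rows above and 15 below their host. The hosts themselves had a median of -0.012. In 7 cases the row stood at least 1 above its host, and in 1 case at least 1 below. That case was Mir3096, at 2.00 FPKM in siLinc-Yy1 and 3.29 FPKM in siNC. Its host AI506816 measured 18.2 FPKM in siLinc-Yy1 and 2.95 FPKM in siNC and was the only host at least 2-fold apart. Row and host overlap, so their values are not independent.

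**Figure D4:**
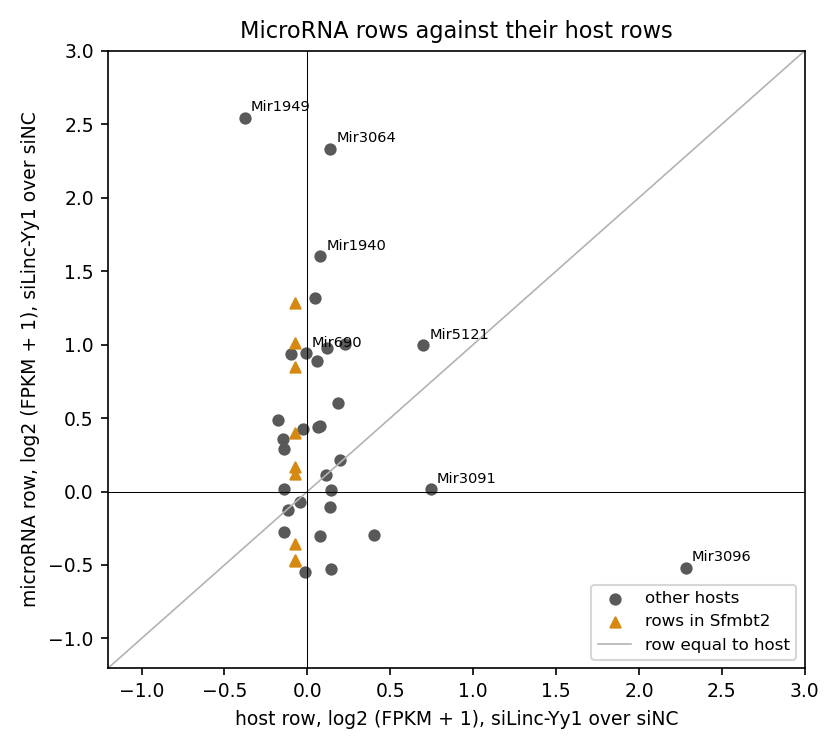
Change on the log2 (FPKM + 1) scale between siLinc-Yy1 and siNC for 40 microRNA rows above 0 in both libraries, against that of their host rows; the diagonal marks equal change and triangles are the rows in Sfmbt2. Points spread along the vertical axis while most hosts stay near 0, with Mir1949 and Mir3064 far above the diagonal and Mir3096 far below it.

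The largest family of rows at one place lies in Sfmbt2 on chromosome 2, a Polycomb-related gene that carries a rodent cluster of repeated microRNA copies. Of 36 microRNA rows there, 20 were at 0 in both libraries, beside 483 of all 614 microRNA rows. Into the set came 9, with 6 higher and 3 lower in siLinc-Yy1. Mir669b measured 6.83 FPKM in siLinc-Yy1 and 2.22 FPKM in siNC, at least 2-fold higher. Mir297c, flagged LOWDATA, was also at least 2-fold higher, at 9.34 FPKM in siLinc-Yy1 and 4.14 FPKM in siNC. Mir467d was lower, at 3.72 FPKM in siLinc-Yy1 and 5.57 FPKM in siNC. Summed over the 9 rows the level was 46.1 FPKM in siLinc-Yy1 and 35.2 FPKM in siNC, a ratio of 1.31. Sfmbt2 itself stood at 0.224 FPKM in siLinc-Yy1 and 0.287 FPKM in siNC. Since the copies are alike, single rows of the cluster are uncertain.

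The other 44 rows, neither 2-fold apart, nor listed at 0, nor of at least 20 FPKM, had log2 fold changes from -0.86 (Mir713) to 1.00 (Mir5121). Just inside the limit of 1 FPKM lay Mir1190, Mir3068 and Mir499, with means of 1.01, 1.08 and 1.08 FPKM. Just outside were Mir3101, Mir365-2 and Mir19a, with means of 0.996, 0.996 and 0.953 FPKM. Each of these 6 rows had 1 to 3 fragments over both libraries.

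The genes of proteins that make and use microRNAs had close FPKM in both libraries, and protein was not measured. Of 30 listed genes, 27 passed the limit, with 12 higher and 15 lower in siLinc-Yy1. None was 2-fold apart, beside 1.29% higher and 0.0425% lower of all rows above 0 in both. The authors' deposited table gives Adar the status FAIL in place of OK. It called none of the 27, beside 1.22% higher and 0.229% lower of all rows past the limit. Shares this low leave little to be expected among 27 genes. Their median log2 fold change was -0.0088, with a range from -0.30 (Adarb1, an RNA-editing enzyme) to 0.33 (Ran, the GTPase of nuclear export). Drosha measured 35.6 FPKM in siLinc-Yy1 and 34.4 FPKM in siNC, Dgcr8 13.6 FPKM in siLinc-Yy1 and 14.6 FPKM in siNC, and Dicer1 8.22 FPKM in siLinc-Yy1 and 8.96 FPKM in siNC. Eif2c2, the slicing Argonaute, measured 17.7 FPKM in siLinc-Yy1 and 15.4 FPKM in siNC.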

How the data were processed

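Of 13 samples (4 RNA-seq, 9 ChIP-seq), 2 RNA-seq libraries were used, in 1 gene-level Cuffdiff table deposited in 2 identical copies. Its values are FPKM estimated by the authors, with the authors' p-value and q-value, per the file headers. The authors' deposited log2 fold change was not used, since it is infinite where 1 value is 0. The first FPKM column was taken as siNC and the second as siLinc-Yy1, from the header. Per the submitters' processing notes, the build was mm9 and the tools included Cuffdiff 2.0.4, TopHat2 2.0.4 and Cufflinks 2.1.1. Annotation, scaling between libraries and strand use were not given in the sources used here.

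The change was taken as log2 (FPKM + 1) of siLinc-Yy1 minus log2 (FPKM + 1) of siNC, and it is too small for low rows. A change of 2-fold counted as higher or lower, for rows above 0 in both libraries and a mean of at least 1 FPKM. With 1 library per condition no test was run.

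Row length was the width of a locus under 200 bases, otherwise the RefSeq hairpin length. These were equal in 208 of 211 rows that had both. The value of 1 fragment was fitted as a cubic in length (log scale) with a constant ratio between libraries, from values within 0.05 fragments of a whole number. The fit was tested on simulated whole-number fragments alone, so the test does not cover values that are not whole. Fragments are rounded in the text, and ratio intervals are exact binomial ones scaled by the fitted ratio. Total mapped fragments are unknown. Hosts were other rows of the same locus, with RefSeq deciding between several. Shared runs of bases were sought between microRNA hairpins only, not against other transcripts.

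Named were rows at least 2-fold apart, listed at 0 in 1 library, of at least 20 FPKM, called by the authors, in the listed families or sharing a seed, and their hosts. Other rows were chosen after their values were seen. The members, lists and rules were chosen with earlier results of these data known. Alternatives covered pseudocounts, filters, scaling, fold, status, place and exact zeros. Work was done in Python 3.11.15 with pandas 2.3.3, NumPy 2.4.6, SciPy 1.17.1 and matplotlib 3.10.9.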

Additional observations from a re-analysis of the deposited data

How the results depend on the processing

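The 12 higher and 2 lower rows depended on the settings. With 0.1 FPKM added they were 18 and 3, with 5 FPKM 6 and 0, less a running median 15 and 3, with rows at 0 in 1 library included 20 and 9, and at 1.5-fold 23 and 5. Rows alone at their locus gave 5 higher, and rows that share it 7 and 0. Rows of status OK alone gave 11 and 2. Rows of at least 10 fragments, a setting chosen after the data were seen, gave 5 and 1, and the authors' calls 2 and 0. Rescaling to equal summed FPKM, under which the median of all rows past the limit was -0.30 in place of -0.021, gave 9 and 5. The median log2 fold change of 0.36 was 0.50 with 0.1 FPKM added, 0.17 with 5 FPKM, 0.35 without a filter, 0.60 from a mean of 5 FPKM, 0.15 at equal summed FPKM, 0.38 when centred and 0.43 less a running median of rows of like level. The median difference of row and host (0.33) was 0.48 with 0.1 FPKM added, 0.13 with 5 FPKM, 0.63 from a mean of 5 FPKM and 0.30 for status OK alone. The cause of these moves was not tested. The 14 rows at least 2-fold apart kept their direction under every pseudocount, scaling and centring tried, which is no check of them. An added constant cannot turn a direction. The shifts by scaling and centring were smaller than the 2-fold by which these rows were chosen. Of 7 other rows of at least 20 FPKM, Mir719 (-0.03) and Mir680-2 (-0.11) turned at equal summed FPKM. No paired analysis was possible because each condition has 1 library. Leaving out a library was not possible for the same reason. Depth limits most single rows: of 61 of known length, 21 rested on at most 3 fragments and another 21 on 4 to 10.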
